A study of Mus musculus with 8 samples.

Results

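Calpains are cysteine proteases that are switched on by calcium and cut their substrates at a limited number of sites, and calpastatin is their endogenous inhibitor. The 8 genes described here are Capn1, Capn2, Capn3, Capn5, Capn6, Capn7, the regulatory subunit gene Capns1 and the calpastatin gene Cast, taken by symbol from a table of 39017 genes. All 8 passed the filter on low counts, as did 15816 genes in all. RNA was sequenced from satellite cells, the resident stem cells of muscle fibres, isolated from diaphragm and abdominal muscle of adult Pax3GFP/+ mice, which carry a green fluorescent protein reporter at 1 Pax3 allele. Both groups share this genotype, the plating of 7500 cells on 35 mm plates and the culture of 4 days. One group of 4 libraries received 10 µM sal003, which blocks the dephosphorylation of the translation factor eIF2α, and the other 4 libraries received the vehicle DMSO. The labels also give the dose as 10 mM in 1 place. They do not say whether the replicates are separate animals or cultures, so p-values measure the spread between these libraries only. The genes were chosen by symbol but selected on a measured value, their difference between these sal003 and DMSO libraries, so they are given as a description and without p-values.

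Calpain 1 and calpain 2, the conventional calpains, each pair their own catalytic subunit with the common small subunit that Capns1 encodes, and calpastatin inhibits these dimers. In myoblasts they are known for trimming adhesion and cytoskeletal proteins during migration and fusion. Calpain 3 is the muscle calpain, which binds titin in the sarcomere and whose loss causes a recessive limb-girdle muscular dystrophy. Calpains 5, 6 and 7 are non-classical forms without the calcium-binding EF-hand domain of the conventional ones.

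Library totals lay between 32753929 and 40234107 counts with DMSO and between 37248830 and 39378523 with sal003. DMSO replicate 2 stood apart, with 14437 genes detected against 16561 to 18076 in the other 7 libraries and a Spearman correlation of at most 0.949 with another DMSO library. Results are therefore also given without it. Of the 7 satellite cell and myoblast markers, Pax7 was higher in sal003 (72.1 ± 6.74 and 97.2 ± 2.54 CPM for DMSO and sal003), Cdh15 (227 ± 20.3 and 120 ± 13.1 CPM) and Des were lower, and Myod1 (896 ± 85.8 and 892 ± 52.3 CPM), Pax3, Myf5 and Vcam1 did not pass the test. Their summed level, carried mostly by Des and Myod1, was 3850 to 4419 CPM with DMSO and 2217 to 2446 CPM with sal003. Markers of differentiated muscle were lower in sal003 for 7 of 7 genes, and their summed level was 14220 to 18904 counts per 1000000 (CPM) in DMSO and 2999 to 4170 CPM with sal003. Summed fibro-adipogenic markers stood at 95.8 to 115 CPM with DMSO and 99.7 to 118 CPM with sal003, nearly all of it Col3a1, with Dcn, Lum and Dpt at 0 in every library. Endothelial, immune and glial markers summed to at most 6.04 CPM in any library, and Emcn, Ptprc, Adgre1, Cd3e and S100b were at 0 throughout. Of the 5 smooth muscle and pericyte markers, Cspg4 and Abcc9 were lower in sal003. The list's sum was 254 to 319 CPM with DMSO and 152 to 182 CPM with sal003, nearly all of it from Cspg4 and Abcc9. Mean levels of Rgs5, Kcnj8 and Myh11 were at most 0.804 CPM in either group. How far these shifts account for the calpain values was not tested.

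Of the 8 genes, Capn3, Capn6 and Capn1 were lower in sal003 and past the edgeR threshold of adjusted p below 0.05, Capn2 was higher and past it, and Capn5, Capn7, Capns1 and Cast were not past it. The threshold was passed by 22.7% of all tested genes, by 12.2% toward lower and 10.6% toward higher values. The 4 genes past it are also the 4 whose groups of libraries did not overlap, which held for 26.8% of all tested genes. Because these differences were known when the genes were picked, nothing is read from those counts. The same 4 genes were past the threshold in every alternative fit run. Capn5 joined them without DMSO replicate 2 and with limma-voom.

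**Figure D1:**
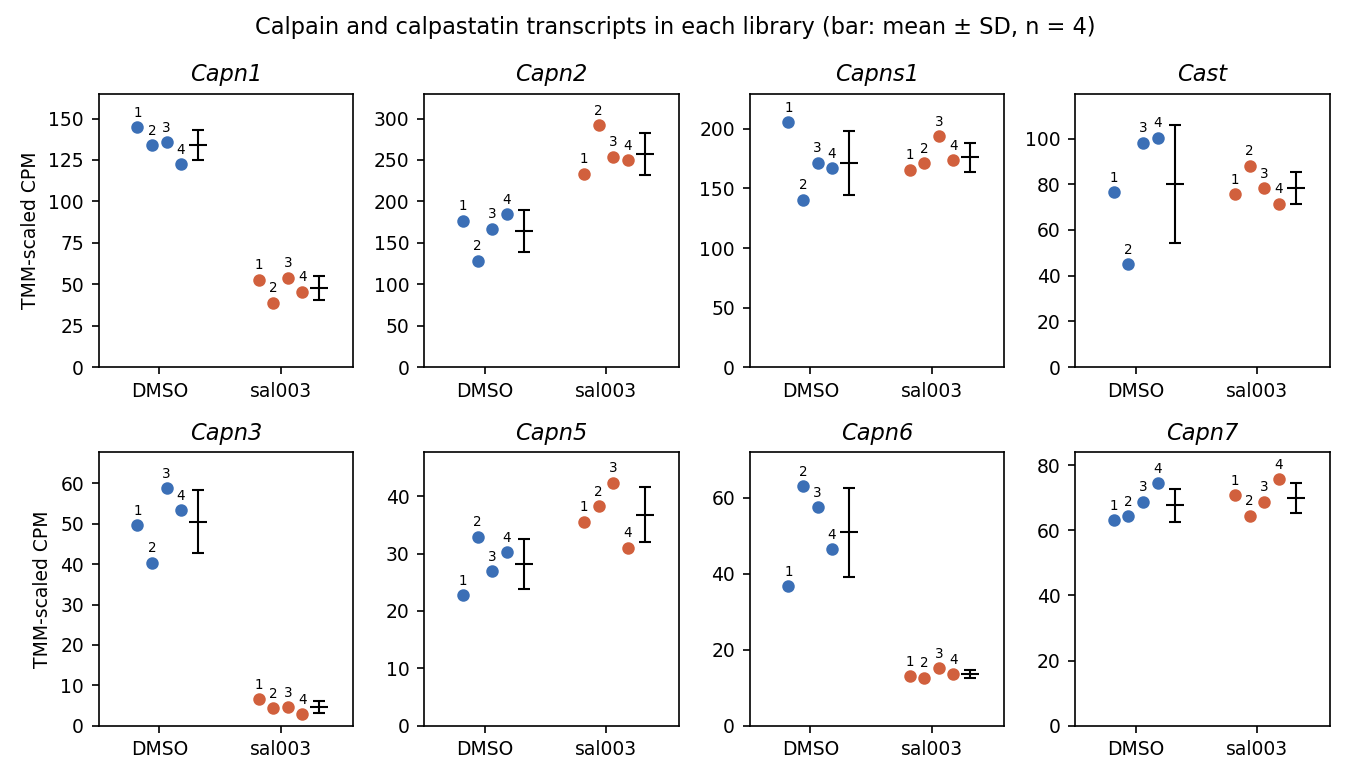
Level of each gene in each library, in TMM-scaled CPM on axes that start at 0; numbers beside points are replicate numbers, and the bar gives the mean ± SD of 4 libraries. Capn1, Capn3 and Capn6 lie lower in all 4 sal003 libraries than in any DMSO library, Capn2 lies higher, and the other panels overlap.

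Capn3 encodes the muscle calpain and lies on chromosome 2, 120456019 to 120504913, plus strand of mm10 (ENSMUSG00000079110). It had 49.6, 40.4, 58.8 and 53.4 CPM with DMSO replicates 1 to 4 and 6.54, 4.32, 4.64 and 2.78 CPM in the sal003 replicates. Every sal003 library was far under every DMSO library, and the lowest DMSO library was replicate 2. The means were 50.5 ± 7.77 CPM with DMSO and 4.57 ± 1.55 CPM with sal003 (SD, n = 4), which is a log2 fold change of -3.47 ± 0.24 (SE), or 11-fold lower. Only 86 of the 15816 tested genes, Capn3 included, had an estimate this low or lower. Without DMSO replicate 2 the log2 fold change was -3.55, and over all alternative fits it ran from -3.68 to -3.28. In bulk RNA, fewer cells that express a gene cannot be told apart from less of its RNA per cell. Exons of Ganc, a glucosidase gene on the same strand, overlap 386 bases (7.68%) of the Capn3 exons, and Ganc itself stood at 9.21 ± 3.08 CPM with DMSO and 5.01 ± 0.793 CPM with sal003 (adjusted p = 0.0582 in edgeR for the difference).

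RefSeq gives Capn3 a pair of starts on GRCm38.p6, and the 250 bases before each are shown with 1 window each of Capn6, Capn1 and Capn2, the other genes past the threshold. Capitals mark CANNTG, the E-box core that MyoD family factors bind, and the consensus of MEF2 factors, on either strand.
Capn3, upstream start, chr2:120463343-120463592, plus strand: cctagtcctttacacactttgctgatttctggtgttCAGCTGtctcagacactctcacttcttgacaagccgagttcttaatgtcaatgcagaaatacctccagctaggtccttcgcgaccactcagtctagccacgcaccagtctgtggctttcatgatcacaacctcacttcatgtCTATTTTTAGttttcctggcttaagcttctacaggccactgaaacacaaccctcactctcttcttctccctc
Capn3, downstream start, chr2:120476659-120476908, plus strand: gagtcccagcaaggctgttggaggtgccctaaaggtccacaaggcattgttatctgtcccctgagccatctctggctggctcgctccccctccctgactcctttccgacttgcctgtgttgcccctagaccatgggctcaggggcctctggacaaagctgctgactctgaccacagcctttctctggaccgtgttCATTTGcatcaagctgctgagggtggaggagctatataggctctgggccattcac
Capn6, chrX:143827413-143827662, minus strand: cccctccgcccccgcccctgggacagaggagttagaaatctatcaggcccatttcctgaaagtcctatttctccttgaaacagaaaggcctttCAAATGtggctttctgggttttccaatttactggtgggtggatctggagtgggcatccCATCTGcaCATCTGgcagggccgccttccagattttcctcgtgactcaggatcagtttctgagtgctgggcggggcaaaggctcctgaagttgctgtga
Capn1, upstream start, chr19:6015826-6016075, minus strand: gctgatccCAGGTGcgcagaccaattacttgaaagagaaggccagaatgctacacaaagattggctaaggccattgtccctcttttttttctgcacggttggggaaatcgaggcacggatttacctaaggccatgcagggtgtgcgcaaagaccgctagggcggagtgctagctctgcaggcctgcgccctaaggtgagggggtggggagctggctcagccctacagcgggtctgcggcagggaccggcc
Capn2, chr1:182517611-182517860, minus strand: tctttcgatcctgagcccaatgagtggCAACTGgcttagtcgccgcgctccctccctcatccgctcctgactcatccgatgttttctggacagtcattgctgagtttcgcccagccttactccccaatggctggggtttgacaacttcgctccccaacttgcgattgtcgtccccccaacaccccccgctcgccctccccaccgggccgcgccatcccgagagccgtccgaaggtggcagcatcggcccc
The window of the upstream Capn3 start held 1 match to MEF2, CTATTTTTAG at bases -72 to -63 from the start, and 1 E-box of the form CAGCTG at -214 to -209. These matches do not overlap each other. Of 32851 RefSeq windows of the same length, 2.92% held the MEF2 consensus, 13.0% held CAGCTG and 66.2% held CANNTG. Among the 12 windows of the 7 members with an entry, no other held MEF2, and the only other CAGCTG lay before a Cast start. Capn6 had 3 CANNTG matches, which 12.2% of all windows reach or exceed, while Capn2 and the upstream start of Capn1 had 1 each. The window of the downstream Capn1 start, which is not shown, held 0. A match is a description of the letters and not of binding.

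Capn6 encodes a calpain that lacks the catalytic cysteine and is known to associate with microtubules (ENSMUSG00000067276, chromosome X, 143802231 to 143827414, minus strand). Its levels were 36.7, 63.0, 57.6 and 46.4 CPM with DMSO replicates 1 to 4 and 13.0, 12.7, 15.2 and 13.5 CPM with sal003. The DMSO libraries were spread widely, with replicate 2 highest, whereas the sal003 libraries lay close together, and the groups did not overlap. Means of 50.9 ± 11.7 CPM and 13.6 ± 1.12 CPM (SD, n = 4) gave a log2 fold change of -1.91 ± 0.18, or 3.75-fold lower in sal003. Leaving out DMSO replicate 2 moved the estimate to -1.78.

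The conventional pair went in opposite directions. Capn1, the catalytic subunit of calpain 1 (ENSMUSG00000024942, chromosome 19, 5988545 to 6015897, minus strand), had 145, 134, 136 and 123 CPM with DMSO and 52.7, 38.9, 54.1 and 45.4 CPM with sal003. Each sal003 library lay under every DMSO library, and replicate 2 was the lowest with sal003. Means of 134 ± 9.12 CPM and 47.8 ± 7.03 CPM (SD, n = 4) gave a log2 fold change of -1.49 ± 0.12, or 2.81-fold lower, and -1.48 without DMSO replicate 2. Capn2, the catalytic subunit of calpain 2 (ENSMUSG00000026509, chromosome 1, 182467260 to 182517608, minus strand), had 177, 128, 167 and 184 CPM with DMSO and 233, 292, 254 and 249.7 CPM with sal003. DMSO replicate 2 was the lowest library and sal003 replicate 2 the highest. Means of 164 ± 24.9 CPM and 257 ± 24.8 CPM (SD, n = 4) gave a log2 fold change of 0.65 ± 0.11, or 1.57-fold higher, and 0.56 without DMSO replicate 2. The antisense gene Gm37885 overlaps 27.1% of the Capn2 exons. It was not found among the counted genes, so its reads could not be analysed separately. Whether some of them are in the Capn2 count cannot be told.

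The balance between them, taken as the ratio of CPM per kilobase of exon within a library, was 0.644, 0.505, 0.650 and 0.792 Capn2 per Capn1 in DMSO and 2.33, 3.96, 2.47 and 2.90 in sal003. Capn1 thus made up 60.9% ± 4.36 of the pair in DMSO and 26.2% ± 4.39 in sal003 (SD, n = 4). The sum of the pair depends on which length is used. With the union of all exons it was 66.0 ± 4.47 CPM per kilobase in DMSO and 54.8 ± 2.49 in sal003, and the groups did not overlap. With the longest coding transcript it was 94.8 ± 7.90 in DMSO and 95.4 ± 5.95 in sal003. The ratio shifted toward Capn2 by both lengths, from 1.17 ± 0.211 to 5.25 ± 1.32 with the coding transcripts.

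**Figure D2:**
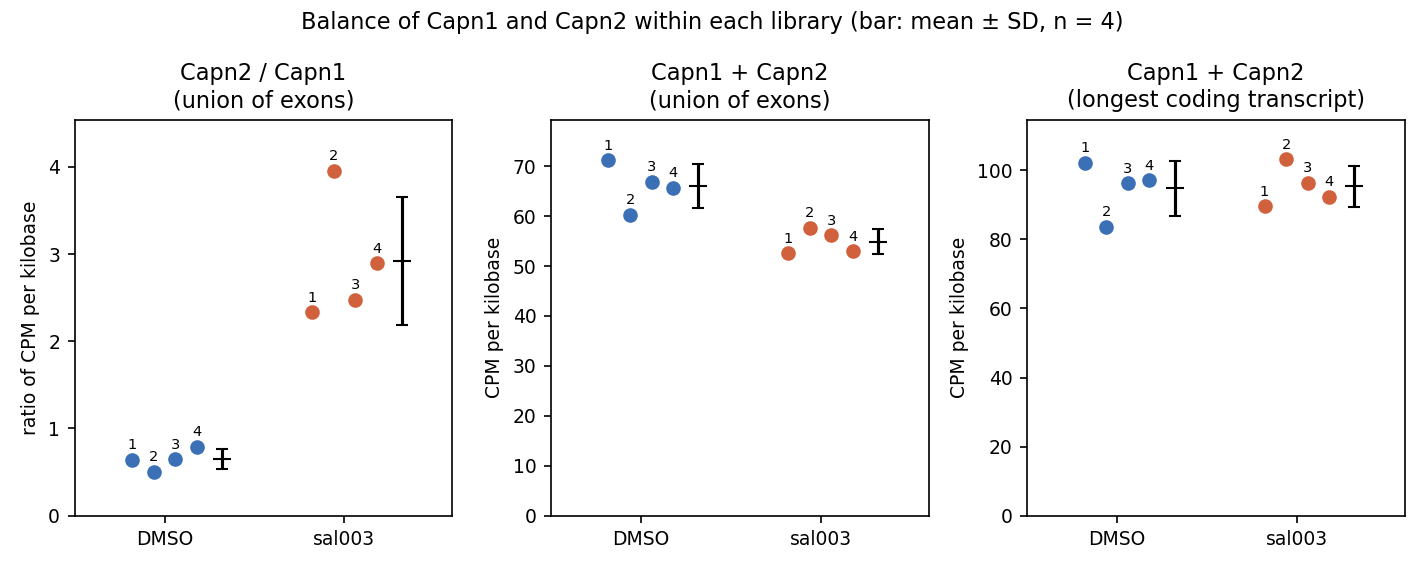
Balance of Capn1 and Capn2 in each library, from CPM per kilobase, with points numbered by replicate and bars for mean ± SD (n = 4). The ratio of Capn2 to Capn1 is at most 0.792 in the DMSO libraries and at least 2.33 in the sal003 libraries, while their sum differs between groups only with the union of exons as the length.

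The regulatory subunit and the inhibitor of this pair did not pass the threshold. Capns1, the common small subunit (ENSMUSG00000001794, chromosome 7, 30186936 to 30198811, minus strand), had 206, 141, 172 and 167 CPM with DMSO and 166, 171, 194 and 174 CPM with sal003. The groups overlapped throughout, and the log2 fold change was 0.04 ± 0.11 (-0.03 without DMSO replicate 2). Cast, calpastatin (ENSMUSG00000021585, chromosome 13, 74692368 to 74808810, minus strand), had 76.5, 45.0, 98.2 and 100.4 CPM with DMSO and 75.7, 88.0, 78.3 and 71.5 CPM with sal003. The DMSO libraries held both its lowest and its highest value, and the spread there (SD 25.7 CPM, n = 4) exceeded that in sal003 (SD 7.01 CPM, n = 4). Its log2 fold change of -0.03 ± 0.20 was -0.22 without DMSO replicate 2, the lowest library. Capns1 per unit of Capn1 plus Capn2 was 1.04 ± 0.0928 in DMSO and 1.30 ± 0.0819 in sal003 with the union of exons, but 1.12 ± 0.0927 and 1.16 ± 0.0910 with coding transcripts. Cast on the same basis was 0.105 ± 0.0319 in DMSO and 0.125 ± 0.00659 in sal003 with the union of exons, and 0.163 ± 0.0462 and 0.160 ± 0.00691 with coding transcripts, so the means lay closer together than the SD within DMSO. The exons of Cast also share 834 bases (7.27%) with Erap1 on the opposite strand, a peptidase gene at 4.52 ± 1.4 CPM with DMSO and 8.34 ± 1.77 CPM with sal003.

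Of the remaining non-classical calpains, Capn5 had the larger difference. Capn5 (ENSMUSG00000035547, chromosome 7, 98121559 to 98178274, minus strand) had 22.8, 32.9, 26.9 and 30.2 CPM with DMSO and 35.6, 38.3, 42.4 and 31.0 CPM with sal003. DMSO replicate 2 lay above sal003 replicate 4, and the other libraries were separate. Means of 28.2 ± 4.38 CPM and 36.8 ± 4.79 CPM (SD, n = 4) gave a log2 fold change of 0.38 ± 0.16. Without DMSO replicate 2 the estimate was 0.48 and past the threshold, in a fit that called more genes over the whole table. Capn7, a calpain with microtubule interacting and trafficking domains that bind the ESCRT machinery (ENSMUSG00000021893, chromosome 14, 31336638 to 31371986, plus strand), had 63.1, 64.3, 68.8 and 74.4 CPM with DMSO and 70.8, 64.5, 68.7 and 75.7 CPM with sal003. These libraries overlapped closely, and the log2 fold change was 0.05 ± 0.11.

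The other calpain genes of the table were few and mostly near 0. Capn8, Capn9 and Capn13 had 0 counts in all 8 libraries. Capn11, Capn12 and Capns2 had a mean under 1 CPM in each group. Capn10 stood at 7.90 ± 1.45 CPM with DMSO and 6.72 ± 0.402 CPM with sal003, and Capn15, the mouse relative of the fly gene small optic lobes, at 16.7 ± 8.00 CPM and 19.8 ± 2.77 CPM (SD, n = 4). Of these 5 tested genes, 0 passed in edgeR and 0 had an unadjusted p below 0.05. In DESeq2 0 passed, but it gave no adjusted p for Capn12 and Capns2. In limma-voom 1, Capn15, passed. For Capn15 the log2 fold change was 0.25 ± 0.27 (adjusted p = 0.613 in edgeR), and without DMSO replicate 2 it was 0.64 (adjusted p = 0.0206).

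**Figure D3:**
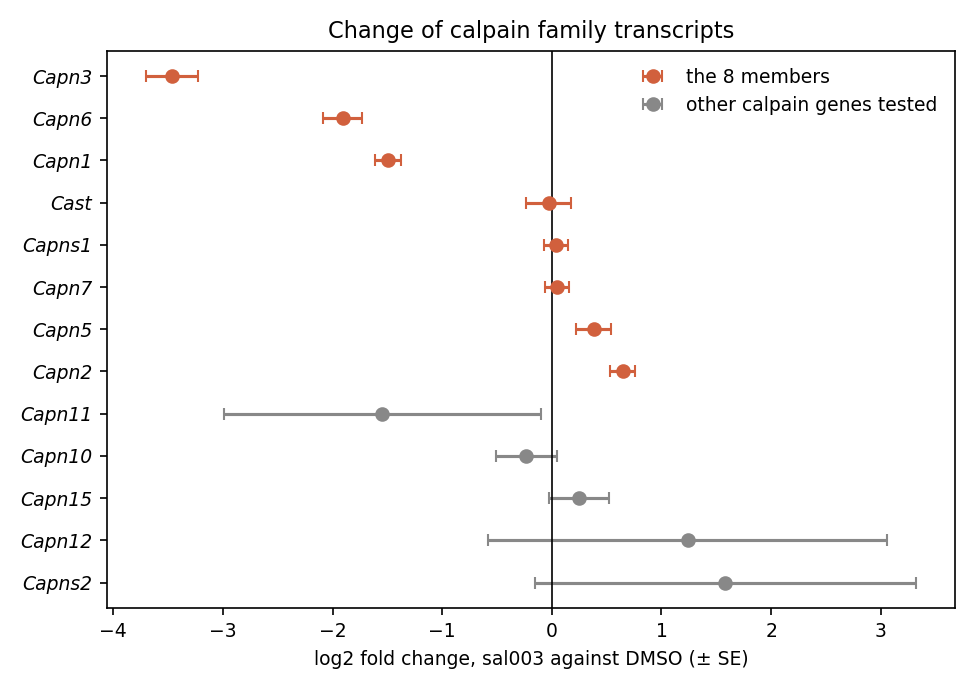
Log2 fold change of sal003 against DMSO with its SE for the 8 members and the 5 other calpain genes tested. Capn3 lies farthest to the left at -3.47, Capn2 at 0.65, and Capn11, Capn12 and Capns2 have SE above 1 on a mean under 1 CPM in each group.

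Levels can be ordered across genes only per length. By CPM per kilobase of the union of exons, Capns1 was highest in DMSO (69.1 ± 10.8), followed by Capn1 (40.1 ± 2.73), Capn2 (25.9 ± 3.92), Capn7 (13.8 ± 1.04), Capn3 (10.1 ± 1.55), Cast (6.98 ± 2.24), Capn6 (6.53 ± 1.5) and Capn5 (5.14 ± 0.799; SD, n = 4). The ranges of Capn3 and Cast, of Cast and Capn6 and of Capn6 and Capn5 overlapped, so those neighbours do not differ beyond their spread. In sal003 the order was Capns1 (71.1 ± 5.0), Capn2 (40.5 ± 3.91), Capn1 (14.3 ± 2.10), Capn7 (14.3 ± 0.955), Cast (6.83 ± 0.611), Capn5 (6.71 ± 0.873), Capn6 (1.74 ± 0.143) and Capn3 (0.910 ± 0.308). There Capn1 overlapped with Capn7, and Cast with Capn5. Capn3 went from the fifth place to the last. It made up 9.87% ± 1.16 of the level of the 6 calpain genes, without Capns1 and Cast, in DMSO and 1.16% ± 0.405 in sal003.

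With the longest coding transcript as the length, Capns1 stayed first in both groups and Capn3 again went from the fifth place to the last. In DMSO Capn2 (50.9 ± 7.72) then stood before Capn1 (43.9 ± 2.98) with overlapping ranges, so which of the pair is the more abundant there depends on the length. Capn7 and Capn3 overlapped as well in DMSO by this length, while Capn6 and Capn5 no longer did. In sal003 Capn7 (19.2 ± 1.28) stood just before Capn1 (15.6 ± 2.3), whose range then overlapped with that of Cast (15.2 ± 1.36).

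**Figure D4:**
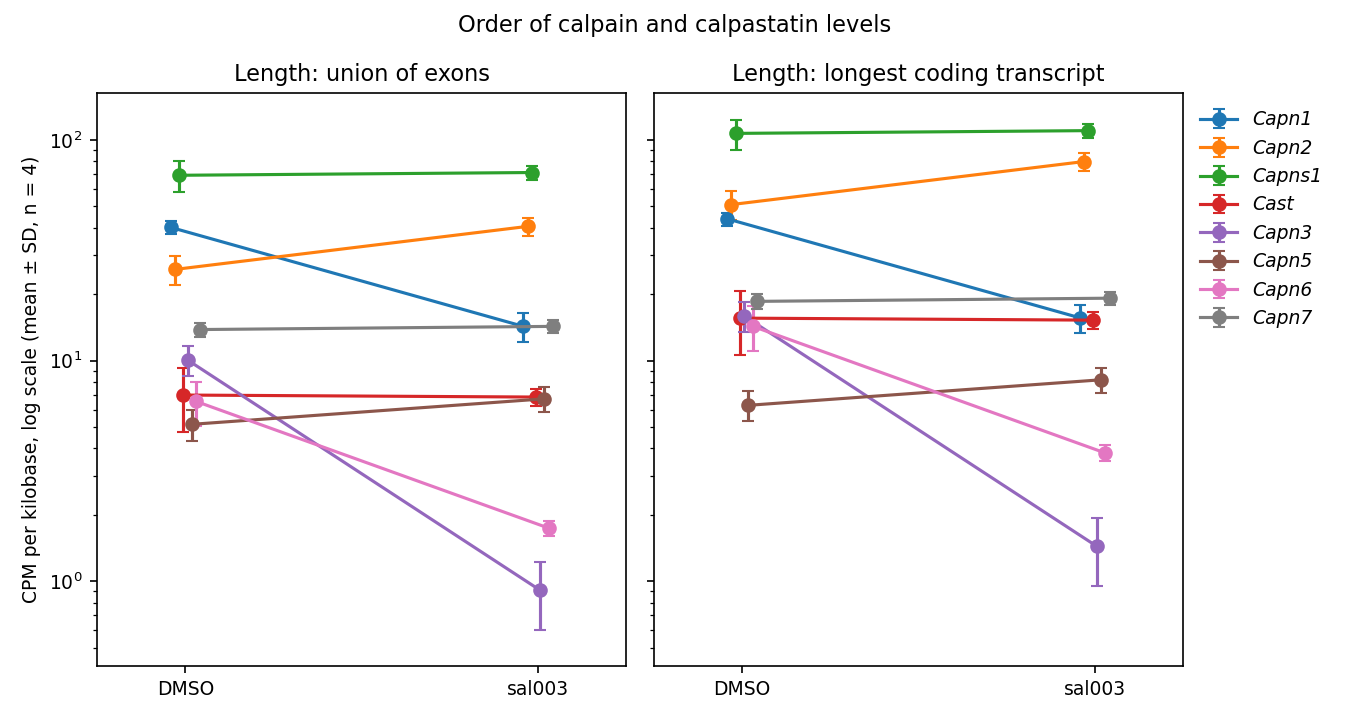
Mean CPM per kilobase ± SD (n = 4) of each gene in DMSO and sal003 on a log axis, by the union of exons and by the longest coding transcript. Capns1 is highest in both, the lines of Capn1 and Capn2 cross only with the union of exons, and Capn3 stands at 10.1 with DMSO and 0.910 with sal003 on that scale.

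Across the 8 libraries Capn1, Capn3 and Capn6 varied together, with Pearson r of log2 CPM of 0.976 between Capn1 and Capn3, 0.958 between Capn1 and Capn6 and 0.950 between Capn3 and Capn6. Capn2 ran opposite to them, at -0.913, -0.862 and -0.935 with Capn1, Capn3 and Capn6. The libraries share 2 conditions, so these values mostly restate the group difference. Each match named below has a highest r among all eligible genes over only 8 libraries, and was not tested. For Cast, Capns1 and Capn7, which differed little between groups, r mostly follows the spread between single libraries. The genes whose pattern was most like that of Capn3 were the nuclear noncoding RNA Malat1 (r = 0.997), Etl4 (0.996), the transaminase gene Gpt2 (0.992) and the matrix gene Ogn (0.991). They differ in size of change, since Malat1 went from 4876 to 3341 CPM and Ogn from 15.4 to 1.22 CPM. For Capn1 they were the lipoxygenase gene Alox5, Bex1, the muscle glycogen synthase gene Gys1 and Ppfia4 (each r = 0.996). Capn6 was matched best by Zdhhc14, Adck2, the transcription factor Klf5 and the sarcomere ubiquitin ligase Trim55 (0.994 to 0.993), and Capn2 by the nonmuscle myosin Myh10, the actin regulator Cap1, Pdk4 and the spindle gene Aspm (0.989 to 0.985). For Capn5 the list was Ndufaf4, Tia1, Prps1 and Srd5a3 (0.984 to 0.955), for Cast it was Tyw5, Carhsp1, Gpalpp1 and Eprs (0.972 to 0.964), for Capns1 Pnpla6, Rab11b, Hist1h2al and Adcy6 (0.982 to 0.930) and for Capn7 Zfp60, Cyb5r4, Ergic2 and Sdc2 (0.929 to 0.899).

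Proteins that calpain 3 binds or cuts were lower as transcripts for the most part. Of the 11 that were tested 7 (63.6%) fell and 0 rose, while the other 4 did not pass. Among all tested genes 22.7% were past the threshold, and 12.2% were past it toward lower values. The median log2 fold change was -1.58 against -0.0034 over all tested genes. This list and those that follow were chosen with earlier results of these data known. Their shares, medians and p-values are therefore given as a description. At an unadjusted p below 0.05, 1 was higher, and DESeq2 and limma-voom each called 1 higher and 8 lower. Without DMSO replicate 2, 9 fell and 1 rose. Each of these alternative fits also called more genes over the whole table. Titin, the scaffold that holds calpain 3, has the gene Ttn, which went from 41058 ± 9433 to 12622 ± 659 CPM (log2 fold change -1.70 ± 0.13 with adjusted p = 5.60e-07 in edgeR). Dysf, the membrane repair protein dysferlin, went from 191 ± 45.0 to 30.5 ± 4.68 CPM (-2.65 ± 0.16, adjusted p = 1.87e-08), with no overlap between groups. Flnc, filamin C of the Z-disc, went from 2310 ± 359 to 588 ± 76.4 CPM (-1.97 ± 0.12, adjusted p = 1.68e-08). The calcium release channel Ryr1 (-1.58 ± 0.09) fell too. Outside the naming rule, and chosen after their values were seen, Cmya5, or myospryn (-2.49 ± 0.28), and the glycolytic enzyme Aldoa (-0.68 ± 0.07) were also among the 7. The 4 that did not pass were Ahnak (0.19 ± 0.08), talin 1 (Tln1, -0.17 ± 0.08), Sorbs3 (-1.16 ± 0.44) and Ankrd2 (-1.31 ± 1.02). Several of these genes are part of the contractile apparatus, whose markers were lower in sal003 as given above.

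Substrates of the conventional calpains moved both ways. Among the 24 genes with a test, 5 rose and 8 fell, and the other 11 did not pass, so that 54.2% were past the threshold against 22.7% of all tested genes. The median was -0.01, against -0.0725 without DMSO replicate 2 and 0.0617 without DMSO replicate 4. Without DMSO replicate 2, 7 rose and 10 fell, in a fit that called more genes over the whole table. The intermediate filament desmin, Des, went from 2941 ± 224 to 1171 ± 40.7 CPM (log2 fold change -1.33 ± 0.08 with adjusted p = 7.22e-09 in edgeR). Vinculin (Vcl, -0.83 ± 0.08), paxillin (Pxn, -1.17 ± 0.11), N-cadherin (Cdh2, -0.77 ± 0.11) and beta spectrin (Sptbn1, -0.70 ± 0.08) fell beside it. Other adhesion genes of the list, named after their values were seen, did not pass. These were Ptk2 (0.18 ± 0.11), Tln2 (0.09 ± 0.09), Ctnnb1 (0.12 ± 0.08) and Src (0.003 ± 0.18). The 5 that rose, named after their values were seen, were the actin-binding proteins Cttn (0.37 ± 0.07), Flna (0.33 ± 0.07) and Ezr (0.70 ± 0.15), the BCL2 family gene Bid (0.64 ± 0.16) and the small GTPase Rhoa (0.25 ± 0.08, adjusted p = 0.0408). The Rhoa call was lost without DMSO replicate 1 or 3 or sal003 replicate 1, 2 or 4 (adjusted p up to 0.158). The integrin Itgb1 fell as well (-0.34 ± 0.10, adjusted p = 0.0169), a call lost without DMSO replicate 3 or 4 or sal003 replicate 2 or 3 (adjusted p up to 0.0684).

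**Figure D5:**
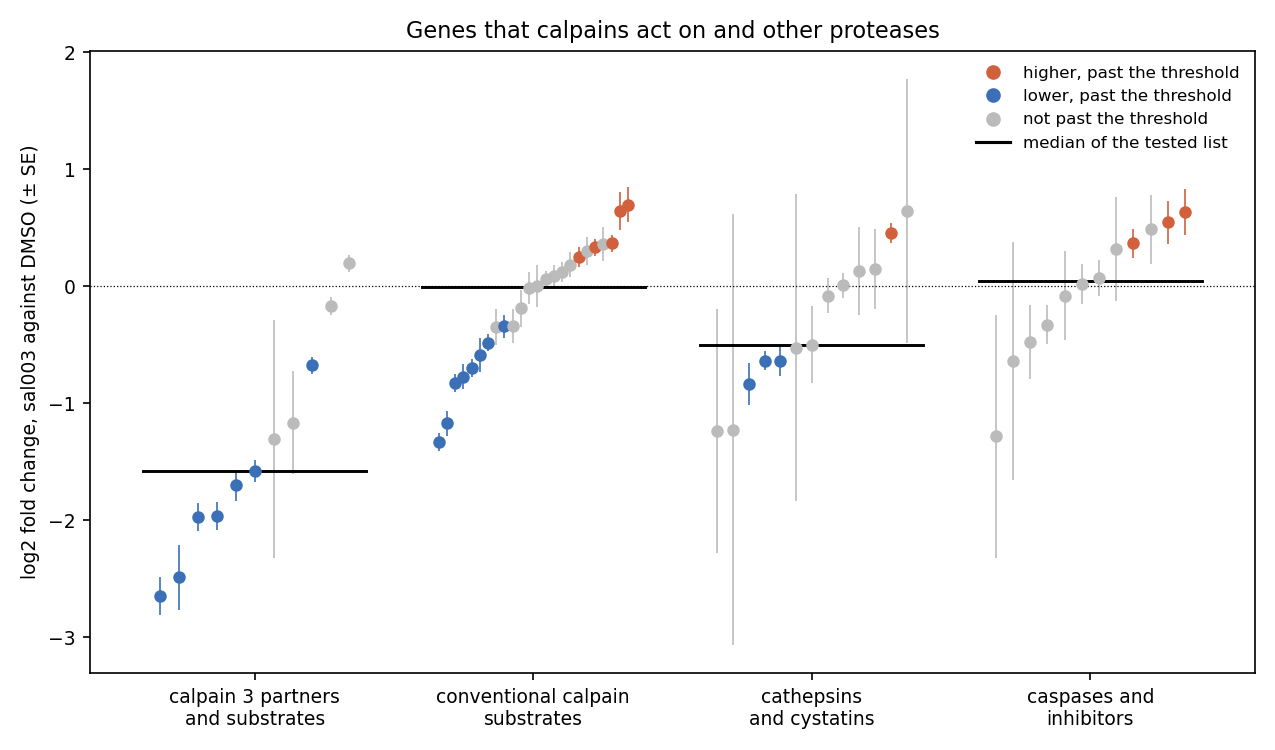
Log2 fold change ± SE of each tested gene in 4 lists, coloured by its side of the edgeR threshold, with the list median as a line. The calpain 3 list has its median at -1.58 and the list of conventional calpain substrates at -0.01, with genes past the threshold on both sides.

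Cathepsins, caspases and their inhibitors had smaller shares past the threshold than the calpain substrate lists above. Of 13 cathepsins and cystatins tested, 1 rose and 3 fell, or 30.8% past the threshold against 22.7% of all tested genes. Ctsl, the lysosomal cysteine protease cathepsin L, went from 98.4 ± 1.53 to 135 ± 6.92 CPM (log2 fold change 0.45 ± 0.09 with adjusted p = 0.00120 in edgeR). The aspartic protease Ctsd went from 243 ± 12.3 to 156 ± 6.46 CPM (-0.64 ± 0.08, adjusted p = 2.93e-05), Ctsz had -0.64 ± 0.13 and Cst3, the secreted inhibitor cystatin C, -0.83 ± 0.18. Cathepsin B, Ctsb, named after its value was seen, stood at 113 ± 14.2 and 114 ± 7.74 CPM. The list's median of -0.50 was nearest to 0 without DMSO replicate 3, at -0.0902, and also lay over 1.5 times nearer to 0 without DMSO replicate 2 or 4 or sal003 replicate 1 or 4 and with halved counts.

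Of 12 caspases and caspase regulators tested, 3 (25%) rose and 0 fell, a share near the 22.7% past the threshold among all tested genes, with 0 lower at an unadjusted p below 0.05 and 0 lower in DESeq2 or limma-voom. The initiator Casp8 went from 15 ± 1.71 to 23.3 ± 4.69 CPM (0.63 ± 0.19, edgeR adjusted p = 0.0272), and the inhibitor Xiap had 0.37 ± 0.13 (adjusted p = 0.0471). Without DMSO replicate 2, 4 rose and 1 fell, in a fit that called more genes over the whole table. Other single libraries ended these calls. Casp8 was lost without DMSO replicate 3 or sal003 replicate 1 or 2 (adjusted p up to 0.124), and Xiap in 7 of 8 fits that each omitted a library (all but without DMSO replicate 2, up to 0.123).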

How the data were processed

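Per the labels' protocols, total RNA was column-purified, depleted of ribosomal and mitochondrial RNA and made into stranded libraries. What the authors deposited is a single table of raw counts by Ensembl gene, and all 8 columns matched samples by name. The submitters' processing notes list mm10, featureCounts 1.4.4, STAR 2.3.0e and Trimmomatic 0.32. No source used here states how strand was handled, so overlapping and antisense genes cannot be told apart. In each library 75.6% to 83.4% of the counts from 1 to 20 were even, so halved counts were added as an alternative after seeing the data.

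The whole table was fitted in R 4.3.3 with edgeR 4.0.16 (filterByExpr with minimum count 10 and total 15, TMM, robust quasi-likelihood test, condition as the only term, two-sided, Benjamini-Hochberg over 15816 genes, threshold 0.05). The SE is the log2 fold change divided by the root of F. CPM are TMM-scaled. Lengths and positions come from GENCODE M21 (mm10). The members and lists were chosen with earlier results of these data known. The rule named the 8 members, the other calpain genes, up to 5 genes past the threshold per list in order of p and, for each member, the 4 genes of highest Pearson r (prior count 2, mean at least 5 CPM). Alternatives were DESeq2 size factors, upper-quartile scaling, no filter, 10 CPM in 4 libraries, a replicate block, each library left out, DESeq2 1.42.0, limma-voom (limma 3.58.1) with quality weights and, added later, halved counts and coding transcript lengths. The fit was tested on simulated data, where it missed many true differences. Given a simulated difference of 1.5-fold, 13 genes out of 67 passed. For 2-fold this was 29 out of 67, and a 4-fold difference let 42 out of 66 pass. Among 15616 genes simulated as equal, 4 passed. A gene that did not pass can therefore still differ between the groups. RefSeq windows (GRCm38.p6) were found for 7 of the 8 members. Some genes of the lists are counted but not reported here by name.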

Additional observations from a re-analysis of the deposited data

How the results depend on the processing

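The count of calpain genes higher in sal003 was 2 with limma-voom and 1 to 2 over the fits that left out 1 library. Among the calpain 3 partners, the count higher was 1 with DESeq2 and 1 with limma-voom and 0 to 1 when 1 library was left out, and the median was -1.74 with the filter of 10 CPM in 4 libraries. The other calpain genes had 1 higher with limma-voom and 0 to 1 when 1 library was left out. Caspases had 0 to 4 higher and 0 to 1 lower when 1 library was left out, and a median of 0.33 with the filter of 10 CPM. The cathepsin and cystatin median of -0.50 ran from -0.64 to -0.09 when 1 library was left out. The substrate median ran from -0.0725 to 0.0617 when 1 library was left out. Of 27 genes past the threshold in the context lists, 22 kept the call in every alternative run and 5 lost it in at least 1, Casp8, Itgb1, Rhoa and Xiap among them. With the replicate number as a block, 1660 genes were higher and 1770 lower in all, against 1671 and 1923 without it, the same 4 calpain genes were past the threshold, and caspases had 1 higher. Same-numbered libraries deviated from their group means with a correlation of -0.005, 0.019, 0.035 and 0.008, so the numbers are not taken to pair them. Over all genes, leaving out 1 library gave 1270 to 2219 higher and 1612 to 2252 lower. The cause of these shifts was not tested. Capn11, Capn12 and Capns2 had few counts, and their group means stayed under 1 CPM.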
